A study of Mus musculus with 12 samples.

Results

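The axon guidance ligands and receptors comprise the semaphorins, plexins, ephrins, Eph receptors, Slits, Robos, netrins and UNC5 receptors, and their mRNA was followed in mouse fibroblasts with and without an edited Aebp1 gene. Members were chosen by gene symbol: every protein-coding gene whose symbol begins with Sema or Plxn, is Efna, Efnb, Epha or Ephb with a number, or is Slit, Robo, Ntn or Unc5 with 1 further digit or letter. The symbols gave 66 genes of 48795 in the expression table: 20 semaphorins, 9 plexins, 8 ephrins, 14 Eph receptors, 3 Slits, 4 Robos, 3 netrins, 4 UNC5 receptors and Unc50. Unc50 matches by its letters only and encodes no netrin receptor, so that 65 genes belong to the families. Total RNA sequencing was compared between 3 Aebp1 knockout (KO) clones of the NIH3T3 line, F5, G5 and H7, and the parental wild-type (WT) NIH3T3 cells. NIH3T3 is an immortalised line of mouse embryo fibroblasts, and Aebp1 encodes a secreted, collagen-binding protein of the extracellular matrix, known as ACLP. Each clone was sampled at passages 7, 8 and 9 and the parental cells at passages 6, 7 and 8, giving 12 libraries in 4 groups of 3. All 4 lines grew in the same serum-containing medium. Each KO group is 1 clone, so the edit and the cloning step occur together, and what sets a single clone apart cannot be told apart from what the loss of Aebp1 does. Whether the passages of a line came from independent cultures is not given, so a p-value here reflects the spread among these libraries, which may be technical.

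These families were named for steering growing axons and are used by many other cells. Semaphorins, most of them membrane proteins and those of class 3 secreted, bind plexins, which act on small GTPases, and class 3 semaphorins mostly need a neuropilin as co-receptor. Ephrins are bound to the membrane, the A type by a lipid anchor and the B type by a transmembrane segment, and they bind Eph receptor tyrosine kinases on a neighbouring cell. Slits are secreted ligands of Robo receptors, and netrins are secreted, laminin-like ligands of DCC, neogenin and the UNC5 receptors. In fibroblasts and other mesenchymal cells, these pathways are known for contact repulsion, cell spreading and the control of the cytoskeleton.

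The 12 libraries held 22088714 to 31329755 counts. Aebp1 averaged 193 ± 19.9 CPM (counts per 1000000, scaled by the TMM method) in F5, 128.3 ± 8.46 CPM in G5 and 147 ± 14.4 CPM in H7, against 553 ± 76.6 CPM in parental cells (SD, n = 3 each), a difference of -1.52, -2.11 and -1.91 on the log2 scale. All 10 fibroblast markers examined were above 1 CPM in every group, and their summed level covered 24449 to 25895 CPM in F5, 23629 to 25469 CPM in G5, 24347 to 27758 CPM in H7 and 25231 to 29475 CPM in parental cells. Single markers differed more than the sum. Col3a1 averaged 262, 216 and 672 CPM in F5, G5 and H7, against 743 CPM in parental cells. Pdgfra averaged 246, 290 and 189 CPM, against 491 CPM. Fn1 and Vim instead averaged higher in each clone than in parental cells. Of 8 neuronal markers 3 exceeded 1 CPM, and their sum was 22.02 to 25.07 CPM in F5, 16.8 to 21.3 CPM in G5 and 47.4 to 68.1 CPM in H7, against 23.1 to 29.5 CPM in parental cells, with Elavl4 at 0 in every group. Endothelial, epithelial and skeletal muscle markers summed to at most 2.4 CPM in any library, with Kdr, Cldn5, Epcam, Myod1 and Myog at 0 throughout, and macrophage markers to at most 7.93 CPM, with Adgre1 and Tyrobp at 0.

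Of the 66 members, 45 passed the count filter, which required about 10 counts in at least 3 libraries: 15 semaphorins, 7 plexins, 7 ephrins, 8 Eph receptors, 3 Slits, 2 netrins, 2 UNC5 receptors and Unc50. No Robo receptor passed. The 21 members that failed reached at most 0.316 CPM in any library. Among them, 6 had no count in any library, namely Epha6, Robo2, Unc5c, Unc5d, Plxnb3 and Sema3e, and the other 15 summed to at most 42 counts over all 12 libraries, the highest being Plxnc1. At this depth, 3 counts in a group correspond to 0.0358 CPM in F5, 0.0398 CPM in G5, 0.0386 CPM in H7 and 0.0426 CPM in parental cells, which is the lowest level that could be told from 0, for counting error only.

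Levels of different members were compared in TPM (transcripts per 1000000, which allow for gene length). Plexins led: Plxnb2, a receptor for class 4 semaphorins, averaged 118 TPM over the 12 libraries, and Plxna1, a signalling partner of neuropilins in class 3 semaphorin receptors, averaged 77.3 TPM. The Slit ligands Slit3 and Slit2 followed at 61.4 and 53.6 TPM, with wide ranges over the libraries, 30.03 to 119.97 TPM for Slit3 and 17.2 to 137 TPM for Slit2. Plxna3 (36.5 TPM), Efna5 (36.4 TPM), Sema3a (35.7 TPM), Epha2 (33.4 TPM), Sema3f (32.6 TPM) and Efnb2 (32.3 TPM) lay close together, and their ranges over the libraries overlapped. In all, 10 members averaged at least 30 TPM, 22 lay between 1 and 30 TPM and 34 were below 1 TPM. The highest member of the remaining receptor families was Ephb4 among B-type Eph receptors, at 27.3 TPM, and Unc5b among UNC5 receptors, at 19.3 TPM. Netrins were low, with Ntn1 at 0.905 TPM. Ligand and receptor levels were unequal for the Slits: the 3 Slits summed to 75.9 ± 31.2 TPM in F5, 80.5 ± 30.4 TPM in G5 and 186 ± 37.9 TPM in H7, against 118 ± 56.8 TPM in parental cells, while the 4 Robos summed to at most 0.448 TPM in any library, with Robo3, at 18 counts over the whole series, the highest.

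**Figure D1:**
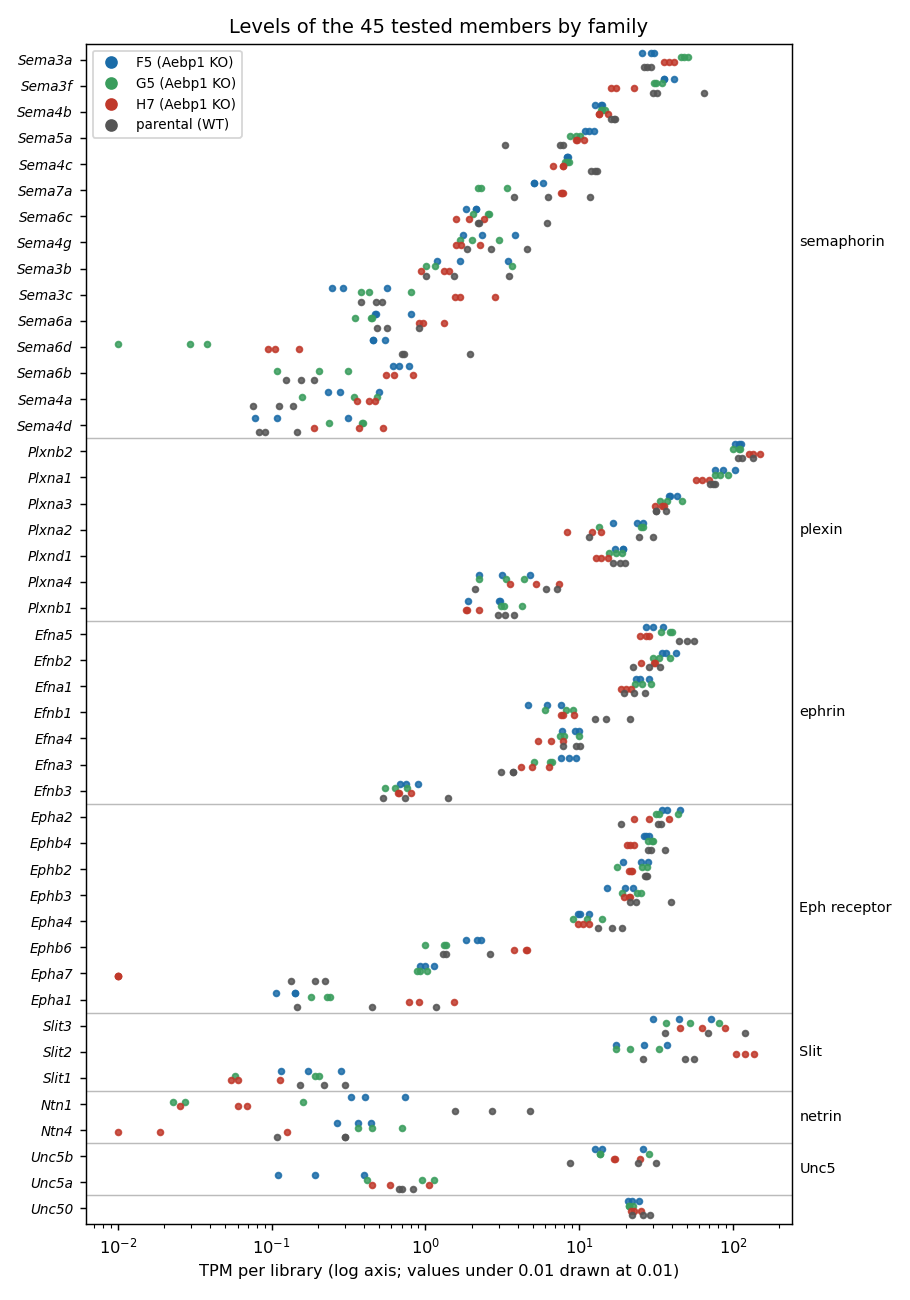
TPM of the 45 tested members in each of the 12 libraries (log axis), grouped by family and ordered within a family by mean level; each point is 1 library, coloured by line. Levels run from below 0.1 TPM to over 100 TPM, with Plxnb2 (mean 118 TPM) highest and the points of most members close together across the 4 lines.

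Each clone was then set against parental cells to find which guidance genes differ in Aebp1 KO cells. In F5, 4 tested members rose and 8 fell, beside 6.88% and 7.37% of all genes tested. In G5, 3 rose and 9 fell, beside 6.54% and 6.56% of all genes. In H7, 9 rose and 14 fell, beside 9.64% and 9.92%. Calls are those of edgeR's quasi-likelihood test at an adjusted p under 0.05, with p-values adjusted over all 14704 genes tested. Over all those genes, the same rule called 14.3% in F5, 13.1% in G5 and 19.6% in H7, so the share of tested members called, 26.7% in F5, 26.7% in G5 and 51.1% in H7, was above the background in each clone. The median log2 difference of the 45 members was -0.21 in F5, -0.31 in G5 and -0.20 in H7, beside -0.01, -0.01 and -0.02 over all genes tested. For the mean of the 3 clones, 5 members rose and 8 fell, beside 8.55% and 10.5% of all genes, in all 28.9% of members beside 19.0% of genes, with a median of -0.29 beside -0.02. Among the 39 tested members that averaged at least 1 CPM over the 12 libraries, 3 rose and 7 fell in F5, 3 and 9 in G5, and 6 and 12 in H7. In at least 1 clone, 29 of the 45 tested members were called, beside 4349 of the 14704 genes tested (29.6%). Leaving out Unc50 takes 1 member from those that fell in G5, leaving 8, and from those called in at least 1 clone, and gives a median of -0.30 in G5, -0.24 in H7 and -0.30 for the mean of the clones. With the place of a library in the passage order as a block, 7 members rose and 15 fell in F5, 4 and 15 in G5 and 11 and 20 in H7, and 24 were called for the mean, beside 4226, 3948, 4808 and 4908 of all genes. With the counts of each line summed, which leaves 1 value per line, no gene passed for the mean of the clones (11 of 45 members at an unadjusted p under 0.05), so every call for that mean given here is lost under this alternative.

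**Figure D2:**
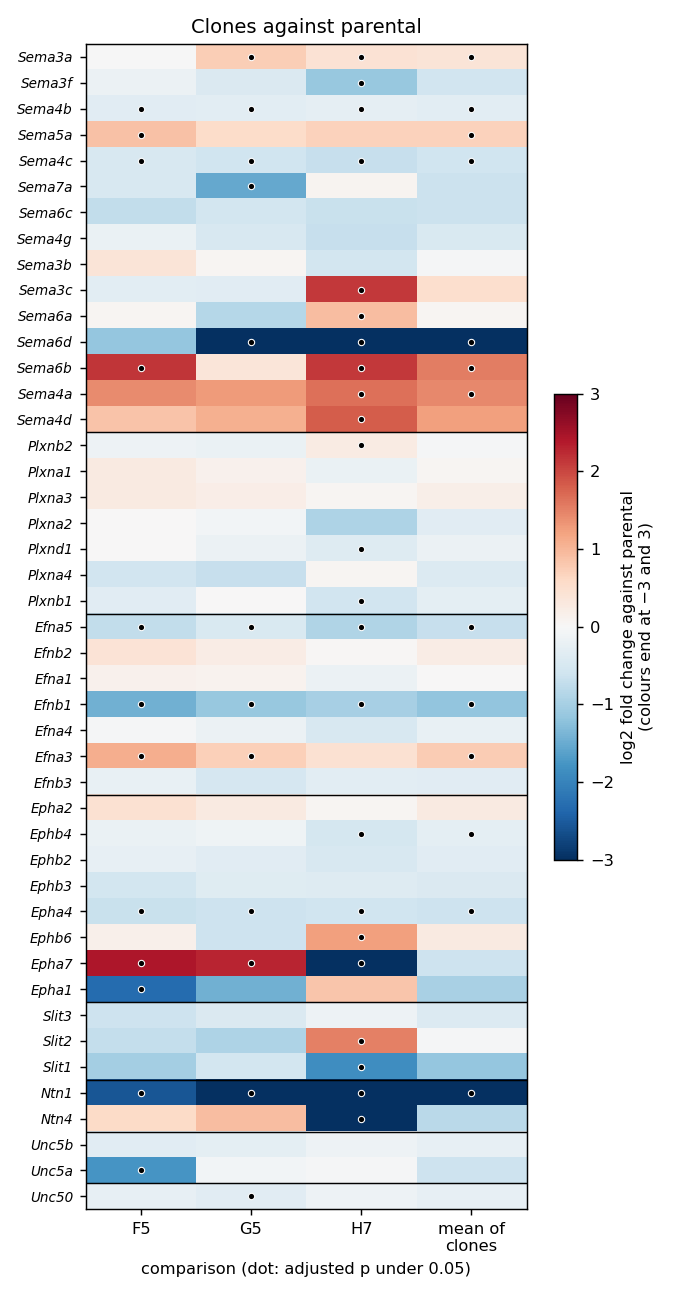
Log2 fold change of the 45 tested members in F5, G5, H7 and the mean of the clones against parental cells, as colour (red higher, blue lower, colours ending at -3 and 3), with a dot where the adjusted p is under 0.05. The H7 column holds 23 dots, against 12 each in F5 and G5, and Epha4, Efna5, Efnb1, Ntn1, Sema4b and Sema4c are blue with a dot in every column.

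Across the 3 clones, 6 members fell in every clone and none rose in every clone. The 6 were the ephrins Efna5 and Efnb1, the netrin Ntn1, the class 4 semaphorins Sema4b and Sema4c, and the receptor Epha4. Over all genes tested, 2.14% fell in all 3 clones and 2.54% rose in all 3. The 3 comparisons share the parental libraries, so the shared direction is not independent evidence. Called members were picked by a test on these same libraries. Where their libraries are described below as lying apart from those of another group, this adds no support to the call. The share of all genes with such a separation was not counted. Promoter sequences are shown for the ephrins and Eph receptors on which these results turn, Epha4, Efna5 and Efnb1 from this group of 6 and Epha7 as the member that moved in opposite directions between clones, each running from 250 bases before to 50 bases after the annotated start (RefSeq, GRCm38.p6), 5′ to 3′ on the gene's strand. Capitals mark the GC box, searched as GGGCGG on both strands (CCGCCC on the strand shown).
Epha4, chr1:77515039-77515338, minus strand: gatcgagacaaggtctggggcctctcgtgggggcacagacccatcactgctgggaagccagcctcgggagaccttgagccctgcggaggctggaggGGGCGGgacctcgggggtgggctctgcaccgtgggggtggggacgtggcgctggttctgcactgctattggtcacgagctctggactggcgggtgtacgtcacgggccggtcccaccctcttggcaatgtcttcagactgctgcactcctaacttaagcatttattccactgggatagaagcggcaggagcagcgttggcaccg
Efna5, chr17:62881268-62881567, minus strand: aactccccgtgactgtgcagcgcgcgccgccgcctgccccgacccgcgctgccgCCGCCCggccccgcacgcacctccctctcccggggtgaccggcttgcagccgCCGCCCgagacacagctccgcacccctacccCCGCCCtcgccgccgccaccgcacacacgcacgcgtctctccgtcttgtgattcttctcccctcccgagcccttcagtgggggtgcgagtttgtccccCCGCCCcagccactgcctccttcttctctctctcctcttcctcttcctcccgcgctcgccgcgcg
Efnb1, chrX:99135811-99136110, plus strand: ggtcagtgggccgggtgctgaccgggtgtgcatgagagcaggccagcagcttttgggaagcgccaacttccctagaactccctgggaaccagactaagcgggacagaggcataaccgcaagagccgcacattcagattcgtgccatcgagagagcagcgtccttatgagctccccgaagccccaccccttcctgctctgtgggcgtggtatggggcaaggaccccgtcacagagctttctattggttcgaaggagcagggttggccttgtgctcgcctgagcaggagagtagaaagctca
Epha7, chr4:28812881-28813180, plus strand: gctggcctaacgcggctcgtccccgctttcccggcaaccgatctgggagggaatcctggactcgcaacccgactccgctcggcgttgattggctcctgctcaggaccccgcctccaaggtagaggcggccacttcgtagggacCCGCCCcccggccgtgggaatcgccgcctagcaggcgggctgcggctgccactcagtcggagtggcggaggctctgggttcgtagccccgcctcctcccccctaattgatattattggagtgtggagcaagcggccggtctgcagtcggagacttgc
The GC box was found 4 times in the Efna5 window, once each in those of Epha4 and Epha7, and not in that of Efnb1. It occurs in 35.7% of the 32851 mouse promoters of this length in the table. GC content was 64% in the Epha4 window, 73.3% in Efna5, 59.7% in Efnb1 and 67% in Epha7, beside a median of 52.7% over all promoters. A TEAD motif (GGAATG), an AP-1 motif (TGANTCA) and an E-box (CACGTG), searched on both strands and present in 14.7%, 7.81% and 7.15% of promoters, had no match in these 4 windows. This does not hold for the whole group of 6. Among its members not shown, 1 Sema4b window held an E-box match and 1 Sema4c window an AP-1 match. Another window of each gene held no match to these motifs. Of the 66 members, 57 had a promoter in the table.

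Among the ephrin ligands, Efna5 and Efnb1 fell in every clone. Efna5, an A-type ephrin, stood at 56.4, 59.9 and 63.7 CPM in F5, 67.1, 74.8 and 77.6 CPM in G5 and 50.6, 56.6 and 53.6 CPM in H7, against 90.3, 111 and 100.03 CPM in parental cells, with libraries in passage order. The clone libraries all lay below the parental ones. Efna5 fell by 0.74 ± 0.09 on the log2 scale in F5 (SE; edgeR adjusted p = 0.000513), by 0.46 ± 0.09 in G5 (adjusted p = 0.00708) and by 0.90 ± 0.09 in H7 (adjusted p = 7.86e-05). Efnb1, a B-type ephrin that also signals back into the cell that carries it, stood at 13.6, 8.28 and 11.03 CPM in F5, 15.98, 10.6 and 13.6 CPM in G5 and 16.3, 14.1 and 14.2 CPM in H7, against 27.5, 37.9 and 23.1 CPM in parental cells. Again no clone library reached the lowest parental one, and Efnb1 fell by 1.43 ± 0.22 in F5, 1.14 ± 0.22 in G5 and 0.99 ± 0.22 in H7 (edgeR adjusted p = 0.00184, 0.00624 and 0.00836). In bulk RNA, fewer cells that express a gene and less RNA per cell cannot be told apart.

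Epha4, a receptor that binds both A-type and several B-type ephrins, stood at 27.3, 26.1 and 31.05 CPM in F5, 29.0, 24.5 and 34.7 CPM in G5 and 27.7, 29.8 and 31.8 CPM in H7, against 38.0, 53.5 and 42.8 CPM in parental cells. Every clone library was below every parental one, and the log2 differences were close to each other, -0.67 ± 0.14, -0.61 ± 0.14 and -0.59 ± 0.14 (edgeR adjusted p = 0.0112, 0.0195 and 0.0153 for F5, G5 and H7). The call in G5 was lost without G5 passage 7 (adjusted p = 0.0705), without G5 passage 8 (0.0595) or without the second passage of every line (-0.34, 0.107), and the call in H7 without H7 passage 7 (0.0654).

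Ntn1, which encodes netrin-1, the founding guidance cue of its family, had the largest difference of the 6. It stood at 1.03, 1.91 and 1.27 CPM in F5, 0.0707, 0.499 and 0.0797 CPM in G5 and 0.0796, 0.221 and 0.197 CPM in H7, against 7.38, 12.7 and 5.01 CPM in parental cells. Summed over a group this is 121, 15 and 13 counts in the clones and 600 counts in parental cells. The log2 difference was -2.56 ± 0.46 in F5, -5.33 ± 0.59 in G5 and -5.61 ± 0.60 in H7 (edgeR adjusted p = 0.00444, 0.000274 and 0.000131). F5 exceeded H7 by 3.05 ± 0.64 (adjusted p = 0.00706). The size of the G5 difference rests on few counts: without G5 passage 8, it is -6.72. The other netrin tested, Ntn4, was below 1.5 CPM in every library.

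The class 4 semaphorins Sema4b and Sema4c are membrane ligands, and Sema4c binds Plxnb2. Sema4c stood at 15.1, 15.3 and 14.3 CPM in F5, 14.1, 14.7 and 12.8 CPM in G5 and 12.4, 12.8 and 13.3 CPM in H7, against 23.1, 20.1 and 19.3 CPM in parental cells, and fell by 0.48 ± 0.09, 0.59 ± 0.09 and 0.70 ± 0.09 in F5, G5 and H7 (edgeR adjusted p = 0.00485, 0.00178 and 0.000367). Sema4b moved little but evenly, at 27.5, 25.9 and 24.6 CPM in F5, 27.4, 26.8 and 24.7 CPM in G5 and 28.4, 26.0 and 26.2 CPM in H7, against 32.3, 32.1 and 33.3 CPM in parental cells. Its differences were -0.33 ± 0.07, -0.31 ± 0.07 and -0.28 ± 0.07 (adjusted p = 0.0116, 0.0164 and 0.0181). Sema4b lost its call in F5 without F5 passage 9 (adjusted p = 0.0621), in G5 without G5 passage 9 (0.0721) and in H7 without parental passage 8 (0.0535), H7 passage 8 (0.0759) or H7 passage 9 (0.0695). In F5, the median of all tested genes on chromosome 7, where Sema4b lies, was -0.20, and its difference less that median is -0.13.

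**Figure D3:**
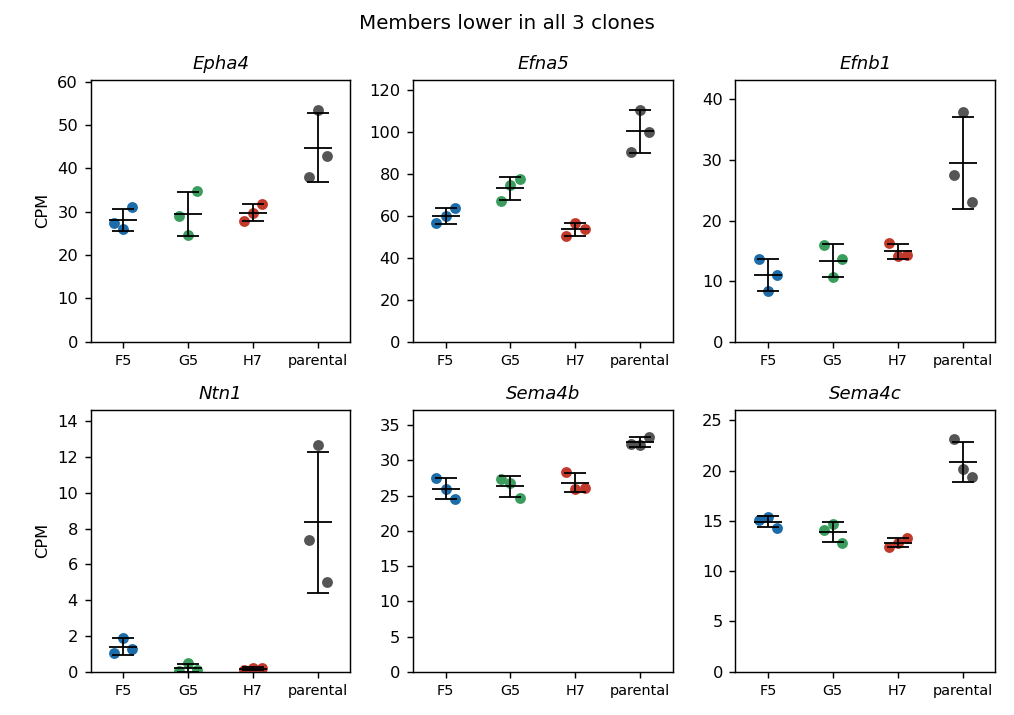
CPM of Epha4, Efna5, Efnb1, Ntn1, Sema4b and Sema4c in F5, G5, H7 and parental cells; points are libraries in passage order, the bar and whiskers the mean and SD of 3 libraries, each vertical axis starting at 0. In each panel all 9 clone points lie below the 3 parental points, as for Efna5 (50.6 to 77.6 CPM in clones, 90.3 to 111 CPM in parental cells). The 6 genes were picked by a test on these libraries, so this separation adds no support.

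Of the members that rose for the mean of the clones, Efna3, Sema3a, Sema5a and Sema6b reached 1 CPM in at least 1 group. Efna3, another A-type ephrin, opposed Efna5 in direction: it stood at 10.1, 8.38 and 9.68 CPM in F5, 8.202, 6.53 and 7.25 CPM in G5 and 7.32, 5.08 and 5.98 CPM in H7, against 4.96, 4.74 and 3.65 CPM in parental cells. It rose in F5 (1.08 ± 0.17, edgeR adjusted p = 0.00195) and in G5 (0.72 ± 0.17, adjusted p = 0.0172), while in H7 the difference was 0.46 ± 0.17 (adjusted p = 0.0804). The G5 call was lost without parental passage 8 (0.0562) or G5 passage 7 (0.0658). Sema3a, the collapsing cue secreted for plexin-A and Nrp1 receptors, rose in G5 and H7 and not in F5. It stood at 61.8, 70.9 and 66.3 CPM in F5, 110.4, 113 and 113 CPM in G5 and 88.3, 99.3 and 87.6 CPM in H7, against 73.2, 60.9 and 68.1 CPM in parental cells. G5 and H7 libraries did not overlap the parental ones and F5 libraries did. The differences were -0.02 ± 0.08 in F5, 0.74 ± 0.08 in G5 (adjusted p = 0.000309) and 0.44 ± 0.08 in H7 (adjusted p = 0.00359), and F5 against G5 differed by -0.76 ± 0.08 (adjusted p = 0.00229).

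Sema6b and Sema6d, transmembrane semaphorins whose receptors include A-type plexins, were low and varied by clone. Sema6b stood at 1.30, 1.63 and 1.43 CPM in F5, 0.424, 0.227 and 0.598 CPM in G5 and 1.31, 1.77 and 1.22 CPM in H7, against 0.268, 0.316 and 0.395 CPM in parental cells, and rose in F5 (2.14 ± 0.32, edgeR adjusted p = 0.00181) and H7 (2.12 ± 0.33, adjusted p = 0.00113). In G5 the difference was 0.36 (adjusted p = 0.576). Sema6d was almost absent from G5: it stood at 1.65, 1.47 and 1.39 CPM in F5, 0.0707, 0 and 0.120 CPM in G5 and 0.398, 0.221 and 0.275 CPM in H7, against 5.72, 2.13 and 2.24 CPM in parental cells. These are 126, 5 and 23 counts in the clones and 233 counts in parental cells. Sema6d fell in G5 (-5.57 ± 0.61, adjusted p = 0.000253) and in H7 (-3.48 ± 0.49, adjusted p = 0.000632), and the difference in F5 was -1.16 (adjusted p = 0.0812). Parental passage 6 is high, and without it the differences of Sema6d are -4.95 in G5 and -2.86 in H7. Without G5 passage 9 the difference in G5 is -6.24.

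Sema5a, a semaphorin with thrombospondin repeats, stood at 68.7, 73.9 and 65.0 CPM in F5, 50.9, 56.2 and 56.0 CPM in G5 and 56.9, 64.3 and 59.0 CPM in H7, against 47.8, 19.2 and 45.6 CPM in parental cells. It rose in F5 (0.88 ± 0.25, edgeR adjusted p = 0.0376) and for the mean of the clones (0.70 ± 0.21, adjusted p = 0.0402), with parental passage 7 far below the other parental libraries. Sema5a lies on chromosome 15, whose median was 0.45 in H7 and 0.06 in F5. Less that median, its difference is 0.23 in H7 (0.68 before, not called) and 0.82 in F5. The call for the mean was lost without any 1 clone library (0.0531 to 0.0715), and the F5 call without any F5 or H7 library or without G5 passage 8 or 9 (up to 0.0976). Sema7a, a lipid-anchored semaphorin, stood at 10.6, 9.07 and 9.26 CPM in F5, 6.01, 4.13 and 3.67 CPM in G5 and 14.1, 14.1 and 14.2 CPM in H7, against 11.6, 6.75 and 21.9 CPM in parental cells. It fell in G5 (-1.54 ± 0.34, adjusted p = 0.014), and the value is -0.99 without parental passage 8. The call was lost without G5 passage 8 (0.0528) or 9 (0.0614). At low level, Sema4a and Sema4d rose in H7 (adjusted p = 0.0353 and 0.0313), and both calls were lost when some single libraries were left out. Sema4a summed to 29, 24 and 32 counts in F5, G5 and H7, against 9 counts in parental cells.

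H7 stood apart when the clones were compared directly. F5 and H7 differed in 16 of the 45 members, 9 higher in F5 and 7 lower, beside 17.9% of all genes (9.45% higher and 8.49% lower). G5 and H7 differed in 14 members, 6 higher in G5 and 8 lower, beside 17.4% (8.88% higher and 8.51% lower). F5 and G5 differed in 3 members, Sema6b and Sema6d higher in F5 and Sema3a lower, beside 0.258% (0.190% higher and 0.0680% lower). The F5 against G5 call for Sema6b was lost in 16 of 21 alternatives, among them the loss of any 1 clone library, and that for Sema6d in 5 of 21, among them the loss of any 1 G5 library, while that for Sema3a was kept in 21 of 21. The summed level of the neuronal markers was also highest in H7, where Map2 supplied most of it (36.1 CPM in H7, against 11.02 CPM in parental cells) and Syt1, Elavl4 and Stmn2 were at 0, and its part in the H7 differences was not tested.

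Slit2, a secreted Robo ligand, set H7 apart by its level. It stood at 49.1, 106 and 81.9 CPM in F5, 50.8, 93.1 and 63.6 CPM in G5 and 313, 427 and 376 CPM in H7, against 78.5, 162 and 151 CPM in parental cells. Every H7 library was above every other library. Slit2 rose in H7 by 1.51 ± 0.33 (edgeR adjusted p = 0.00808), while the differences in F5 (-0.72, adjusted p = 0.165) and G5 (-0.92, adjusted p = 0.0901) did not pass. The difference was -2.23 ± 0.34 for F5 against H7 (adjusted p = 0.00104) and -2.43 ± 0.34 for G5 against H7 (adjusted p = 0.000615). As a share of summed Slit TPM, Slit2 made up 35.9% in F5, 29.9% in G5 and 65.3% in H7, against 38.4% in parental cells. Slit3 stood at 79.4, 181 and 116 CPM in F5, 88.0, 211 and 129 CPM in G5 and 114, 230.2 and 172 CPM in H7, against 93.7, 303 and 182 CPM in parental cells, and passed in no clone (differences -0.62 ± 0.45, -0.44 ± 0.45 and -0.16 ± 0.45). The fit held no term for place in the passage order, so the spread between passages is part of these SE. At each place, the F5 and G5 values of Slit2 and Slit3 were below the parental one. Slit1 was below 0.7 CPM in every library, and its call in H7 (-1.87, adjusted p = 0.0304, 9 counts against 31 in parental cells) was lost when any of 5 libraries was left out.

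Epha7, a receptor for A-type ephrins, was the member called in opposite directions. It stood at 2.18, 3.08 and 2.12 CPM in F5 and 2.09, 2.36 and 2.27 CPM in G5, against 0.403, 0.553 and 0.395 CPM in parental cells, and had no count in any H7 library. It rose by 2.43 ± 0.25 in F5 (edgeR adjusted p = 0.000504) and 2.29 ± 0.25 in G5 (adjusted p = 0.000648). In H7, 0 counts against 32 in parental cells make it at least 11.8-fold lower, taking 3 counts over the group as the floor (edgeR adjusted p = 0.000196). Against the other clones, Epha7 was at least 64.8-fold higher in F5 and at least 57.7-fold higher in G5 than in H7. Ntn4, a netrin that binds laminins, was also near 0 in H7, at 0.0398, 0 and 0.0393 CPM, against 0.224, 0.592 and 0.615 CPM in parental cells. The 2 H7 counts against 34 parental counts give a ratio of 0.0533, with an exact counting interval of 0.00621 to 0.208 (95%), and Ntn4 fell in H7 (adjusted p = 0.00368). It stood at 0.536, 0.879 and 0.733 CPM in F5 and 0.707, 1.41 and 0.677 CPM in G5.

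Among semaphorin ligands, Sema3c, Sema3f, Sema6a and the low Sema4a and Sema4d given above were called in H7 and in neither other clone. Sema4a and Sema4d passed for no pair of clones. Between clones, Sema3c differed from H7 in both F5 and G5. Sema3f passed for F5 against H7 only, and Sema6a for G5 against H7 only. Sema3c, secreted and known for cell migration into the cardiac outflow tract, stood at 0.766, 1.41 and 0.733 CPM in F5, 0.778, 1.18 and 0.956 CPM in G5 and 7.72, 4.27 and 3.97 CPM in H7, against 1.16, 1.42 and 1.054 CPM in parental cells. The H7 libraries lay above all others, and Sema3c rose by 2.13 ± 0.32 (edgeR adjusted p = 0.00106). Sema3f, a ligand for Nrp2-containing receptors, was lower instead: 53.4, 59.4 and 49.99 CPM in F5, 44.7, 48.8 and 41.5 CPM in G5 and 22.8, 33.8 and 26.4 CPM in H7, against 47.8, 91.7 and 43.5 CPM in parental cells. It fell in H7 by 1.14 ± 0.25 (adjusted p = 0.00812), with parental passage 7 far above the other parental libraries. That call was lost with only the compared libraries (0.0609). Sema6a, a transmembrane ligand of Plxna2 and Plxna4, stood at 1.30, 2.20 and 1.43 CPM in F5, 0.742, 1.04 and 0.837 CPM in G5 and 3.54, 2.73 and 2.71 CPM in H7, against 1.30, 2.29 and 1.098 CPM in parental cells. Its call in H7 (0.93 ± 0.29, adjusted p = 0.0466) was lost in 14 of 21 alternatives, among them the loss of any 1 library other than parental passage 7 or F5 passage 8, and less the H7 median of its chromosome, 0.25, its difference is 0.68.

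**Figure D4:**
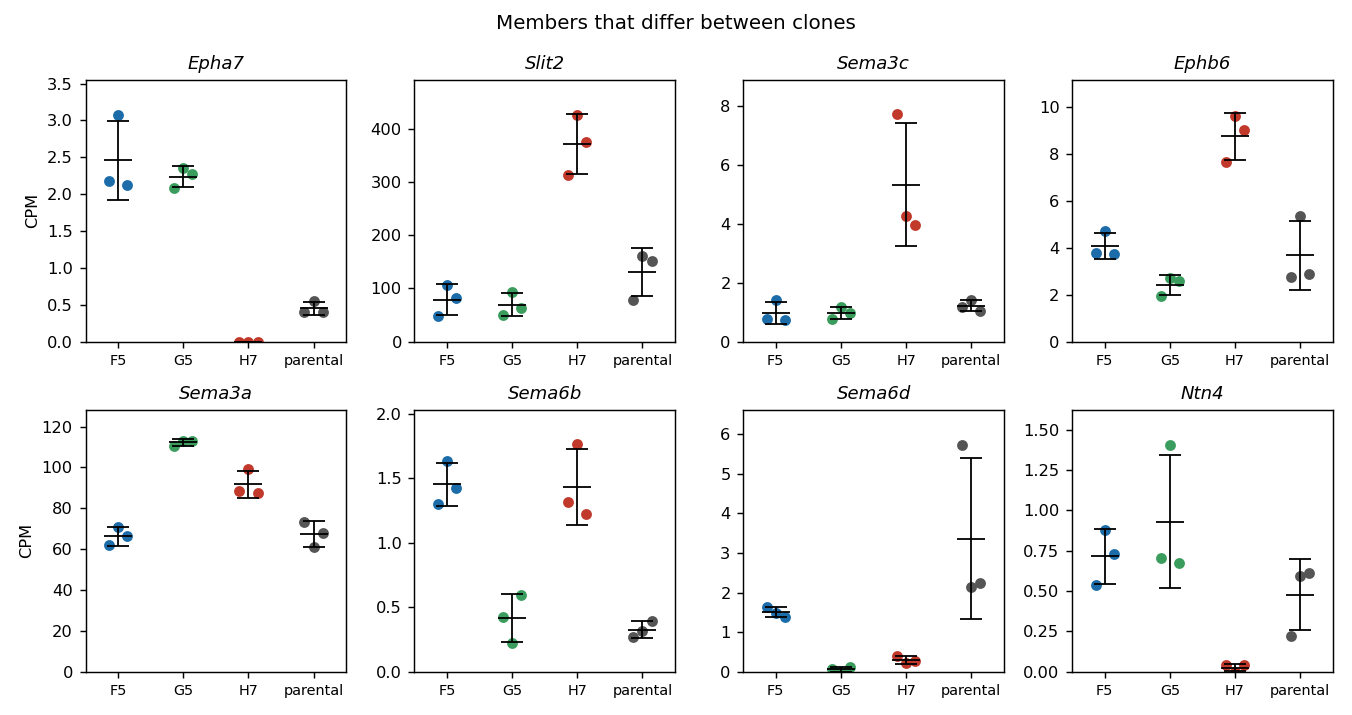
CPM of Epha7, Slit2, Sema3c, Ephb6, Sema3a, Sema6b, Sema6d and Ntn4 in F5, G5, H7 and parental cells; points are libraries in passage order, the bar and whiskers the mean and SD of 3 libraries, each vertical axis starting at 0. Epha7 sits at 0 in all H7 libraries, and Slit2, at 313 to 427 CPM in H7, lies above every other library.

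Among receptors, Ephb6, a member of the Eph family whose kinase domain is inactive, stood at 3.79, 4.71 and 3.74 CPM in F5, 1.94, 2.72 and 2.59 CPM in G5 and 7.64, 9.61 and 9.01 CPM in H7, against 2.77, 5.37 and 2.90 CPM in parental cells. It rose in H7 by 1.24 ± 0.24 (edgeR adjusted p = 0.0045). Ephb4, the receptor for Efnb2, stood at 62.3, 67.4 and 64.1 CPM in F5, 65.7, 71.0 and 66.1 CPM in G5 and 50.5, 55.0 and 50.9 CPM in H7, against 71.5, 84.3 and 68.4 CPM in parental cells. It fell in H7 by 0.52 ± 0.08 (adjusted p = 0.00141) and for the mean of the clones by 0.29 ± 0.07 (adjusted p = 0.0113). Epha2, the Eph receptor with the highest level, stood at 96.6, 72.2 and 79.4 CPM in F5, 91.0, 66.6 and 63.1 CPM in G5 and 80.0, 60.8 and 49.95 CPM in H7, against 73.1, 38.7 and 70.1 CPM in parental cells, and its groups overlapped. Its differences, 0.45 ± 0.25, 0.28 ± 0.25 and 0.07 ± 0.25, did not pass. Efnb2, the ephrin ligand of second highest level, stood at 107, 86.9 and 92.3 CPM in F5, 97.0, 74.9 and 77.9 CPM in G5 and 77.1, 77.5 and 65.6 CPM in H7, against 86.5, 55.3 and 73.1 CPM in parental cells. The F5 libraries all lay above the parental ones and the G5 and H7 libraries overlapped them, and its differences, 0.41 ± 0.16, 0.22 ± 0.16 and 0.04 ± 0.16 in F5, G5 and H7, did not pass. Epha1 stood at 0.192, 0.251 and 0.154 CPM in F5, 0.318, 0.408 and 0.399 CPM in G5 and 1.27, 2.54 and 1.69 CPM in H7, against 0.268, 1.93 and 0.835 CPM in parental cells. It fell in F5 (-2.32, adjusted p = 0.0286), with a difference of -1.43 and an adjusted p = 0.105 without parental passage 7. It summed to 263 counts in the series beside 169233 for Zyx, which it overlaps on the opposite strand, and the sources used here do not say how strand was counted, so its values are uncertain.

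Of the plexins, Plxnb2 rose and Plxnb1 and Plxnd1 fell in H7. Plxnb2 stood at 360.4, 335 and 354 CPM in F5, 356, 320.3 and 337 CPM in G5 and 493, 454 and 439 CPM in H7, against 378, 419 and 364 CPM in parental cells. H7 lay above the parental libraries, by 0.25 ± 0.07 (edgeR adjusted p = 0.0347). The median of the 534 genes tested on chromosome 15, where Plxnb2 lies, was 0.45 in H7, so that relative to its chromosome the Plxnb2 difference is -0.19, and the call was lost without parental passage 6 or 8, F5 passage 9, or H7 passage 7 or 8 (0.0533 to 0.138). Plxnb1, the receptor for Sema4d, stood at 10.495, 10.7 and 8.95 CPM in F5, 12.7, 13.7 and 12.2 CPM in G5 and 8.76, 9.39 and 7.39 CPM in H7, against 14.2, 11.8 and 11.9 CPM in parental cells, and fell in H7 by 0.57 ± 0.12 (adjusted p = 0.00753). Plxnd1, the plexin that binds Sema3e directly, stood at 72.7, 68.9 and 64.6 CPM in F5, 62.3, 56.9 and 60.9 CPM in G5 and 55.7, 50.6 and 50.4 CPM in H7, against 68.6, 71.4 and 63.4 CPM in parental cells, and fell in H7 by 0.38 ± 0.07 (adjusted p = 0.00472). Chromosome 6, which holds Plxnd1 and Ephb6, had a median of -0.22 in H7, and less that median Plxnd1 stood at -0.16 and Ephb6 at 1.46. Plxna1 stood at 501, 373 and 408 CPM in F5, 446, 371 and 359 CPM in G5 and 337, 314 and 287 CPM in H7, against 342, 365 and 368 CPM in parental cells. It passed in no clone against parental cells, while F5 exceeded H7 by 0.45 ± 0.12 (adjusted p = 0.0207).

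Unc5b, the UNC5 member of the highest level, stood at 83.3, 40.4 and 45.05 CPM in F5, 89.3, 43.4 and 40.7 CPM in G5 and 78.9, 55.9 and 56.4 CPM in H7, against 105, 27.6 and 79.3 CPM in parental cells. The groups overlapped and no difference passed, with SE of 0.45 to 0.46, which include the spread between passages. Unc5a stood at 0.843, 0.251 and 0.231 CPM in F5, 1.77, 0.771 and 1.67 CPM in G5 and 2.19, 1.22 and 0.983 CPM in H7, against 1.57, 1.46 and 1.45 CPM in parental cells, and its call in F5 (-1.76, edgeR adjusted p = 0.0392) was lost when single libraries were left out (up to 0.134) and is -2.59 without F5 passage 7. Unc50, which is no guidance receptor, stood at 13.8, 14.1 and 12.7 CPM in G5, against 15.3, 18.2 and 17.8 CPM in parental cells, and its call there (-0.34, adjusted p = 0.0489) was lost likewise.

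The passages also differed. When the second sampled passage was set against the first and the third, 12 members were higher and 4 lower in the second, 35.6% of the members, close to the 32.1% of all genes called (16.5% higher and 15.6% lower). The 16 were called on the 4 lines pooled. This comparison was added after the data had been seen. Slit3 (0.96 ± 0.08, edgeR adjusted p = 0.000125), Sema3b (1.38 ± 0.20, adjusted p = 0.00122) and Slit2 (0.58 ± 0.10, adjusted p = 0.0019) were among the higher ones. Plxna2 (-0.85 ± 0.10, adjusted p = 0.000505), Plxna4 (-0.97 ± 0.17, adjusted p = 0.00251) and Unc5b (-0.73 ± 0.20, adjusted p = 0.0178) were among the lower ones. Plxna2 and Plxna4 are receptors for class 3 and class 6 semaphorins. Plxna2 stood at 129, 84.4 and 124 CPM in F5, 127, 67.3 and 119.6 CPM in G5 and 70.3, 41.5 and 63.2 CPM in H7, against 154, 55.3 and 123 CPM in parental cells. Leaving out F5, G5, H7 or parental cells left 9, 11, 18 or 17 of 44 members called, beside 16.8%, 16.3%, 29.8% or 27.9% of all genes. Between the third and the first passages, Slit3 (0.66 ± 0.09, adjusted p = 0.0101) and Slit2 (0.56 ± 0.11, adjusted p = 0.0457) were higher in the third, beside 1.12% of all genes (0.741% higher and 0.374% lower). These calls rest on the set of lines: 0 of 44 members were called without F5, 0 without G5, 1 without H7 and 8 without parental cells, with 11, 13, 42 and 1365 of all genes. Ntn1 (1.03 ± 0.23) and Sema3f (0.47 ± 0.11) were higher at the second passage and also differed between lines, and the largest parental value of each came from the second passage. With every second passage left out, 10 members were called in F5, 10 in G5 and 23 in H7, beside 1815, 1621 and 2757 of all genes.

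**Figure D5:**
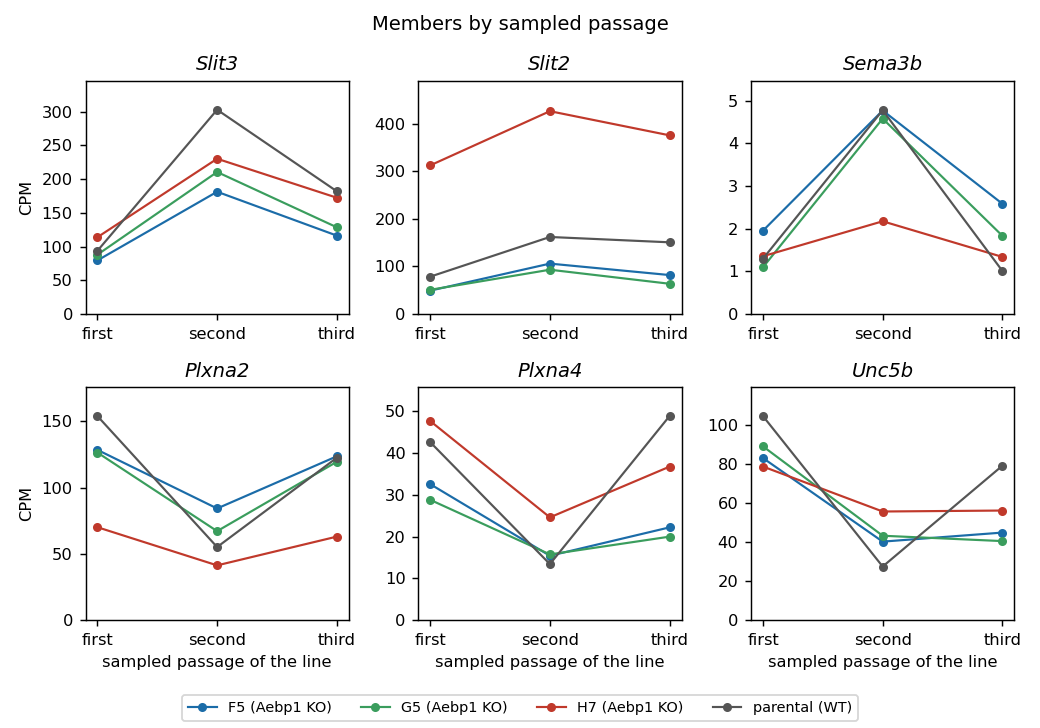
CPM of Slit3, Slit2, Sema3b, Plxna2, Plxna4 and Unc5b at the first, the second and the third sampled passage of each line, 1 point per library, joined within a line, each vertical axis starting at 0. Slit3, Slit2 and Sema3b are highest, and Plxna2, Plxna4 and Unc5b in most lines lowest, at the second passage, as for Slit3 in parental cells (93.7, 303 and 182 CPM).

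Co-receptors and binding partners outside the families were followed as a list of 30 genes, of which 17 were tested. The list was chosen with earlier results of these data known, so its share of called genes is no independent support. For the mean of the clones 4 rose and 3 fell, 41.2% beside 19.0% of all genes. In F5 3 rose and 2 fell, 29.4% beside 14.3%, and in G5 3 and 2, 29.4% beside 13.1%. In H7 2 rose and 2 fell, 23.5% beside 19.6%. The median was -0.10 for the mean of the clones, beside -0.02 over all genes. The neuropilins, which hold class 3 semaphorins to plexins, went apart: Nrp1 averaged 146 ± 6.86 CPM in F5, 148 ± 16.3 CPM in G5 and 162 ± 13.3 CPM in H7, against 187 ± 3.91 CPM in parental cells (-0.30 ± 0.07 for the mean of the clones, edgeR adjusted p = 0.0125). Nrp2 averaged 129.7 ± 13.1 CPM in F5, 124 ± 16.3 CPM in G5 and 134 ± 8.81 CPM in H7, against 99.3 ± 15.0 CPM in parental cells (0.38 ± 0.11, adjusted p = 0.0279). By clone, Nrp1 passed in F5 and G5 and not in H7 (edgeR adjusted p = 0.125). Nrp2 passed in H7 and not in F5 (0.0644) or G5 (0.121). The netrin receptor Dcc had no count in any library, whereas Neo1, which encodes neogenin, rose for the mean of the clones (0.29 ± 0.07, adjusted p = 0.0124). Neo1 rose in F5 (0.32 ± 0.08, edgeR adjusted p = 0.0213) and G5 (0.49 ± 0.08, adjusted p = 0.00268). Its difference in H7 was 0.04 (adjusted p = 0.764). Of the list, the smallest adjusted p belonged to Flrt1, which fell (-1.27 ± 0.21, adjusted p = 0.00228), Rgmb, a ligand of neogenin (-0.29 ± 0.05, adjusted p = 0.00277), L1cam (2.57 ± 0.54, adjusted p = 0.00714) and Flrt2, whose product binds UNC5 receptors (0.60 ± 0.14, adjusted p = 0.0123). Rgmb fell in H7 (-1.11 ± 0.07, adjusted p = 2.08e-06) and rose in F5 (0.21 ± 0.06, adjusted p = 0.0463), and its difference in G5 was 0.02 (adjusted p = 0.901). L1cam was low, at 0.650, 1.30 and 1.32 CPM in F5, G5 and H7, against 0.171 CPM in parental cells.

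Intracellular effectors were followed as a list of 59 genes, 53 of them tested, which was also chosen with earlier results of these data known. For the mean of the clones, 6 rose and 5 fell, 20.8% beside 19.0% of all genes. In F5 2 rose and 3 fell, 9.43% beside 14.3%, and in G5 2 and 4, 11.3% beside 13.1%. In H7 8 rose and 10 fell, 34.0% beside 19.6%. The smallest adjusted p belonged to Chn1, Enah, Abl1 and Farp2, and all 4 fell. Enah, an actin-filament elongation factor, averaged 184 ± 7.10 CPM in F5, 181 ± 4.18 CPM in G5 and 128 ± 9.60 CPM in H7, against 230.3 ± 30.1 CPM in parental cells (-0.51 ± 0.07, edgeR adjusted p = 0.000898). Abl1, a kinase that acts with Robo and Ena proteins, averaged 139 ± 1.07 CPM in F5, 134 ± 6.39 CPM in G5 and 136 ± 2.57 CPM in H7, against 181 ± 23.0 CPM in parental cells (-0.41 ± 0.07, adjusted p = 0.00164). Farp2, a guanine nucleotide exchange factor that acts downstream of Sema3a, differed by -0.46 ± 0.09 (adjusted p = 0.00525). Chn1, a Rac GTPase-activating protein of ephrin signalling, was low, at 0.405 and 0.0398 CPM in F5 and H7 and at 0 in G5, against 1.13 CPM in parental cells.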

How the data were processed

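Ribosome-depleted, stranded total RNA libraries, 12 in all, were sequenced, per the labels' protocols. The deposited count table holds the authors' estimated counts per gene, not normalized, and the deposited TPM table sums to 1000000 in each library. Per the submitters' processing notes the build was GRCm38; aligner, counter, annotation and strand setting: not given in the sources used here. A tolerance of 0.01 makes 98.0% of the members' counts over 0.5 whole. IDs were named from the GENCODE M21 annotation, which holds 67 genes that meet the rule, 66 of them analysed here.

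Counts were rounded and tested with edgeR 4.0.16 (quasi-likelihood F-test, TMM, group as the only term, 12 libraries in 1 fit, 8 residual degrees of freedom, biological coefficient of variation 15.5%). Genes needed 0.39 CPM in at least 3 libraries, which left 14704, and p-values were Benjamini-Hochberg adjusted over these. The SE is the absolute log2 fold change divided by the square root of F. DESeq2 1.42.0 and limma 3.58.1 on log2(TPM + 1) or log2(TPM + 0.1) were alternatives, with RLE factors, no filter, only the compared groups, a block for passage number or for place in the passage order, each library left out, counts summed per line, and subtraction of the chromosome median. The procedure was tested on simulated data. Intervals and floors cover counting error only.

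Members and lists were chosen with earlier results of these data known. Full values are given for members called in a clone or in the mean of clones that reached 1 CPM in a group, and for the 2 highest members of each family; 4 genes of each further list are named by smallest adjusted p, and, outside that rule, Nrp1, Nrp2, Dcc and Neo1 as the families' co-receptors. Members overlapping another gene numbered 23, of which Epha1 and Efnb2 overlapped one with over 10% of their counts.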

Additional observations from a re-analysis of the deposited data

Results flagged for a closer look

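The members below differed between clones by a direct test, edgeR's quasi-likelihood test with Benjamini-Hochberg adjustment over all genes; for each, the pair of clones with the smallest adjusted p is given as a log2 difference. Every library of one clone lay beyond every library of the other in each case. The test that picked these members uses the same libraries, so this separation adds no support to it. Its share over all genes was not counted. For G5 against H7, the ligands lower in G5 were Slit2, which differed by -2.43 (adjusted p = 0.000615), Sema3c by -2.46 (adjusted p = 0.000498), Sema6a by -1.78 (adjusted p = 0.00245), Sema6b by -1.76 (adjusted p = 0.00269) and Sema7a by -1.62 (adjusted p = 0.00736). For F5 against H7, Slit2 (-2.23) and Sema3c (-2.43) also passed, and Sema6a (-0.86), Sema6b (0.02) and Sema7a (-0.56) did not.

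Ligands higher in G5 than in H7 were Efna5, by 0.45 (adjusted p = 0.00519), and Ntn4, by 4.92 on 68 against 2 counts (adjusted p = 0.000629). Higher in F5 than in H7 were Ntn1, by 3.05 (adjusted p = 0.00706), Sema3f, by 0.97 (adjusted p = 0.0188), Sema6d, by 2.32 (adjusted p = 0.0078), and Efna3, by 0.62 (adjusted p = 0.0231). For G5 against H7, Ntn1 (0.27), Sema3f (0.70), Sema6d (-2.09) and Efna3 (0.26) did not pass. Sema3a was lower in F5 than in G5, by -0.76 (adjusted p = 0.00229).

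Among receptors, Epha7 differed by a fitted 8.84 for G5 against H7 (adjusted p = 6.41e-06), a value that depends on the prior count since H7 had no count; its bound is at least 57.7-fold. Ephb6 differed by -1.86 (adjusted p = 0.00049), Ephb4 by 0.38 (adjusted p = 0.00923), Plxnb1 by 0.59 (adjusted p = 0.00605) and Plxnb2 by -0.45 (adjusted p = 0.00182) for G5 against H7. For F5 against H7, Plxna1 differed by 0.45 (adjusted p = 0.0207), Plxnd1 by 0.40 (adjusted p = 0.0036), Unc5a by -1.73 (adjusted p = 0.0339) and Epha1 by -3.16 (adjusted p = 0.00388), the last with the overlap with Zyx named above.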

How the results depend on the processing

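Over the alternatives run, 93 differences of single members (a clone, the mean of clones or a pair of clones) were called; 49 kept their call in every alternative with a test, 44 lost it in at least 1, and none turned round in a test. Less the median of its chromosome, the Plxnb2 difference in H7 turned to -0.19; the subtraction itself sets this value. Passage numbers did not pair the clones with parental cells: same-numbered libraries of different lines had correlations of -0.526 to 0.501 over 15 pairs, 9 of them over 0.1. Those 9 were the pairs between clones (0.153 to 0.501), for which passage number and place in the passage order are the same. Every same-numbered pair of a clone and parental cells was negative (-0.526 to -0.187). With the replicate block of passage number, 13, 12, 21 and 11 members were called in F5, G5, H7 and the mean of clones, against 12, 12, 23 and 13 without it, and 2, 17 and 17 in F5 against G5, F5 against H7 and G5 against H7, against 3, 16 and 14. Of all genes, that block called 1882, 1788, 2451 and 2333 in F5, G5, H7 and the mean of clones. In the pairs of clones, in the same order, it called 21, 2621 and 2496 of all genes. Libraries at the same place in the passage order had correlations of 0.0447 to 0.503 over 18 pairs, 16 of them over 0.1. With place as a block, 22 members were called in F5, 19 in G5, 24 in the mean of clones and 22 in G5 against H7, with 4226, 3948, 4908 and 4356 of all genes, against 2096, 1926, 2800 and 2557 without it. H7 (4808 against 2877) and F5 against H7 (4603 against 2638) also gained genes. With only the compared libraries, 6 members were called in G5, and 767, 581 and 1561 of all genes in F5, G5 and H7, while F5 against H7 gave 19 members and 3304 genes and G5 against H7 15 and 2910; the cause was not tested. With counts summed per line, 0 members were called for the mean of clones, from 4 values in all, with 11 of 45 members and 1736 of all genes at an unadjusted p under 0.05. Limma on log2(TPM + 1) called 1 member in F5 against G5 and 23 genes in all, against 38, and DESeq2 called 102. On log2(TPM + 1), the genes called split as 1173 higher and 582 lower in G5, 1344 and 963 in the mean of clones and 1495 and 823 in G5 against H7, against 961 and 965, 1257 and 1543, and 1305 and 1252 in the edgeR fit; the cause was not tested. Leaving out 1 library at a time gave 8 to 13 members in F5, 9 to 14 in G5, 17 to 23 in H7, 11 to 16 in the mean of clones, 1 to 3 in F5 against G5, 12 to 20 in F5 against H7 and 12 to 16 in G5 against H7. Genes called in all were fewest at 1226 in F5 without F5 passage 7, 1128 in G5 without G5 passage 7 and 1823 in H7 without H7 passage 7. Depth limits Robo receptors and the other members below the count filter.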
